A study of Arabidopsis thaliana with 58 samples.

Results

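Gene expression was measured in the expanding leaves of Arabidopsis thaliana Columbia-0 after 5 days without magnesium. These leaves are leaves 3 and 4 of the rosette, which were still growing at harvest. The comparison used 8 of the 58 libraries of the series, namely 5 from control plants with 1.5 mM Mg and 3 from Mg-deficient plants with 0 mM Mg. Every gene of the day 5 expanding-leaf table with a mean signal of at least 5 was tested, which were 15570 of the 19682 genes with a signal. The signal is the deposited read number per gene after the libraries had been adjusted to a common size. The whole series also holds mature leaves on days 3, 5 and 8, expanding leaves on days 3 and 8, and roots on day 3.

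All plants were wild type and were grown in hydroponic solution. They were 15 days old at the day 5 harvest and 18 days old at the day 8 harvest. The solution without Mg was made by replacing magnesium sulfate with sodium sulfate, so both groups received sulfate but the Mg-deficient plants also received more sodium, and the effects of less Mg and more sodium cannot be told apart. Each library was made from leaves composited from 2 or 3 plants and was chosen by its RNA quality. No source used here says whether the composites of a group came from separate containers, so the p-values measure the spread between these composites. The libraries were strand specific, and whether strand was used in counting is not given in the sources used here.

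Mg is the central ion of chlorophyll and a cofactor of ribulose bisphosphate carboxylase and of enzymes that use ATP. Leaves that lack it are known to turn yellow between the veins, to accumulate sugars and to form reactive oxygen species. Salicylic acid (SA) is a hormone of plant defence and of leaf senescence, and mitochondrial retrograde genes are nuclear genes that respond to disturbed mitochondria. These pathways, photosynthesis, and the nutrition of iron, nitrogen and Mg were examined through 43 lists of genes.

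The 8 libraries held between 1439424 and 2542886 reads. Mg-deficient library 1 had the fewest reads and stood apart from the rest. It had reads for 12656 genes, against 16654 and 15948 genes in Mg-deficient libraries 2 and 3 and 17206 to 18285 genes in the control libraries. Its log2 signal correlated with the mean of the rest of its group at 0.711, compared with 0.822 and 0.788 for the other Mg-deficient libraries and 0.915 to 0.971 for the control libraries. Its 10 most abundant genes took 6.14% of its reads. The 10 most abundant genes of each other library took 10.9% and 11.1% in Mg-deficient libraries 2 and 3 and 11.9 to 13.0% in the control libraries. The number of genes with reads and this share separated all Mg-deficient from all control libraries (2-sided exact permutation test, p = 0.0357, the smallest value that 56 arrangements allow). Counts are therefore given with and without this library, and its part in the differences between groups was not tested further. Where the counts of a list without it are not given, each changed by at most 2 members.

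The label of the tissue was compared with marker genes. Of 8 root markers, 7 were at 0 and CASP1 alone had a signal, with 0 to 11.3 in the control libraries and 0 in the Mg-deficient libraries. All 3 shoot meristem markers (STM, KNAT1 and CLV3) were at 0. The summed signal of 6 mesophyll and young leaf markers ran from 52362 to 77752 in the control group and from 27593 to 87532 in the Mg-deficient group, and of these GRF5, a growth factor of young leaves, was at 0. Summed signals of 6 epidermal markers were 6282 to 8147 and 1266 to 7986, those of 3 guard cell markers 118.5 to 212.8 and 49.6 to 212.5, and those of 8 vascular markers 661 to 751 and 288 to 729. Mg-deficient library 1 gave the lowest sum in all 4 of these leaf classes. RBCS1A (control mean 62684) made up most of the mesophyll sums and LTP1 (6895) most of the epidermal sums. Singly, 2 of 5 epidermal markers tested fell, as called below. These were FDH (log2 fold change -1.21 ± 0.41, no overlap) and CER1 (-1.82 ± 0.55, with overlap). Leaving out single libraries gave 0 to 3 falls. Of 8 vascular markers none passed and 1 had a positive log2 fold change. LHCB3 alone rose among 4 mesophyll markers tested, and no guard cell marker passed. The part of cell type composition in the results below was not tested, and in whole leaves fewer cells of a type and less RNA per cell cannot be told apart.

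After 5 days without Mg, 2132 genes had risen and 2297 genes had fallen at an adjusted p under 0.05 (limma on log2(signal + 1), Benjamini-Hochberg adjusted over all genes tested), which were 13.7% and 14.8% of the genes tested. These shares are the background beside which the counts of list members below stand. Without Mg-deficient library 1 the counts were 2301 and 2631. Without control library 1, 2, 4 or 5 both counts were lower, with 1676, 1631, 1615 and 1725 rises and 1288, 1231, 1216 and 1320 falls. Over all genes the median log2 fold change was -0.34, and -0.09 when libraries were scaled by the median of ratios. Under that scaling 2445 genes had risen and 1987 had fallen, so that the rises made up 55.2% of the calls instead of 48.1%. Signals of the groups did not overlap for 33.9% of the genes, with 2506 genes higher and 2769 lower in Mg-deficient leaves. In the plot of all genes the rises reached further from 0 than the falls.

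**Figure D1:**
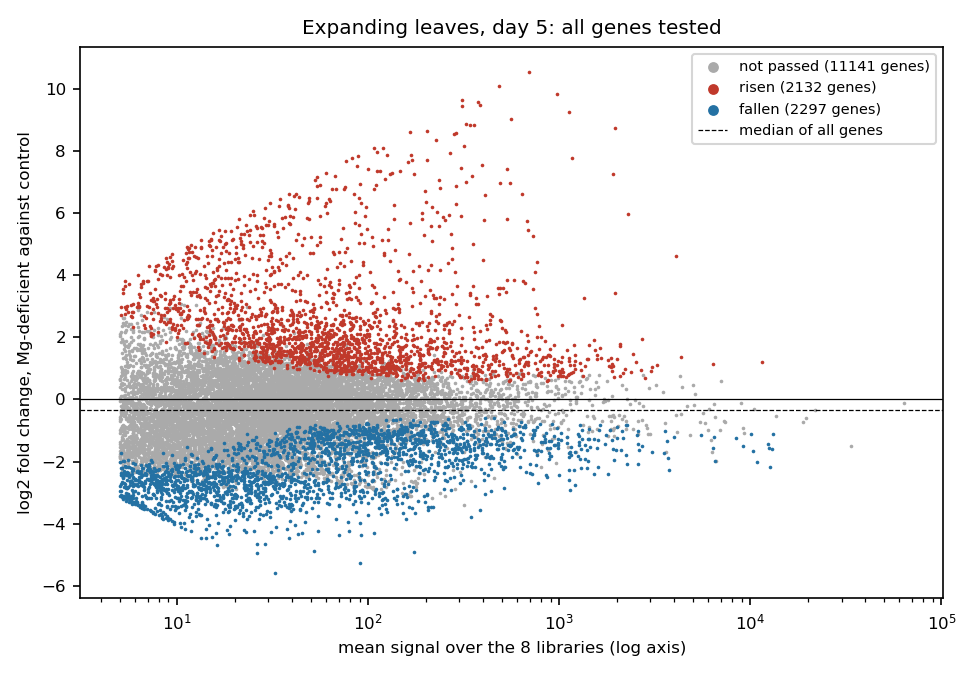
Log2 fold change of every gene tested in expanding leaves on day 5 (vertical axis, Mg-deficient against control) against its mean signal over the 8 libraries (horizontal log axis), with the 2132 risen and 2297 fallen genes coloured and the median of all genes as a dashed line. Rises reached 10.54 and falls reached -5.60 among the named genes, on a scale of log2(signal + 1).

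Of the genes tested, 20.2% passed, had a mean of 20 or more and did not overlap between groups, and the largest changes were taken from these. The 12 largest rises were detoxification, defence and mitochondrial stress genes and genes of unknown role. AT2G04050, which encodes a transporter of the MATE efflux family, led them. Its signal was 0.0068, 1.82, 0, 0 and 0.004 in control libraries 1 to 5 and 2204, 1813 and 1544 in Mg-deficient libraries 1 to 3. Values far below 1 arise from the adjustment of library size and correspond to 0 reads. The control group held 2 reads and the Mg-deficient group 5096, a ratio of 4817 per unit of depth (95% counting interval 1333 to 39787). HSP23.6 (AT4G25200), a small heat shock protein of mitochondria, had 0 reads in all control libraries and signals of 1890, 1545 and 440 in the Mg-deficient libraries. It was at least 2268-fold higher, taking 3 reads in the control group as the floor. AT2G18193, a P-loop ATPase, rose from 1.11, 1.69, 2.53, 0.984 and 3.11 to 2448, 3513 and 1854, or by 9.83 ± 0.39 (SE) on the log2 scale with an adjusted p of 1e-06.

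The other 9 followed closely, and the groups overlapped for none of the 12, as their choice required. AT4G12735, which has no described role, was at 0 in the control libraries and at 1109, 808 and 551 in the Mg-deficient libraries, at least 1444-fold higher. GSTU9 (AT5G62480), a tau-class glutathione S-transferase, had 1 read in the control group and 2647 in the Mg-deficient group, a ratio of 5004 (897 to 197733). UGT74E2 (AT1G05680), a glucosyltransferase that acts on the auxin indole-3-butyric acid, had 1 and 2253 reads, a ratio of 4259 (764 to 168312). AT3G28510, another P-loop ATPase, had 2 and 2761 reads, a ratio of 2610 (722 to 21562). For genes with 3 reads or fewer in a group, a fitted log2 fold change depends on the pseudocount and is no bound. AT1G56060, a cysteine-rich transmembrane protein, rose from at most 5.99 to 5537, 1741 and 1678, and DIP2 (AT5G03210), annotated as a ubiquitin ligase, from at most 4.23 to 2810, 835 and 841. PAD3 (AT3G26830), which makes the antimicrobial compound camalexin, rose from at most 2.11 to 1696, 444 and 572. AT1G53625, of unknown role, and AT2G04070, a further MATE transporter, rose by 8.87 ± 0.55 and 8.82 ± 0.61 on the log2 scale. Both MATE genes lie close together and resemble each other, so reads may have been divided between them.

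**Figure D2:**
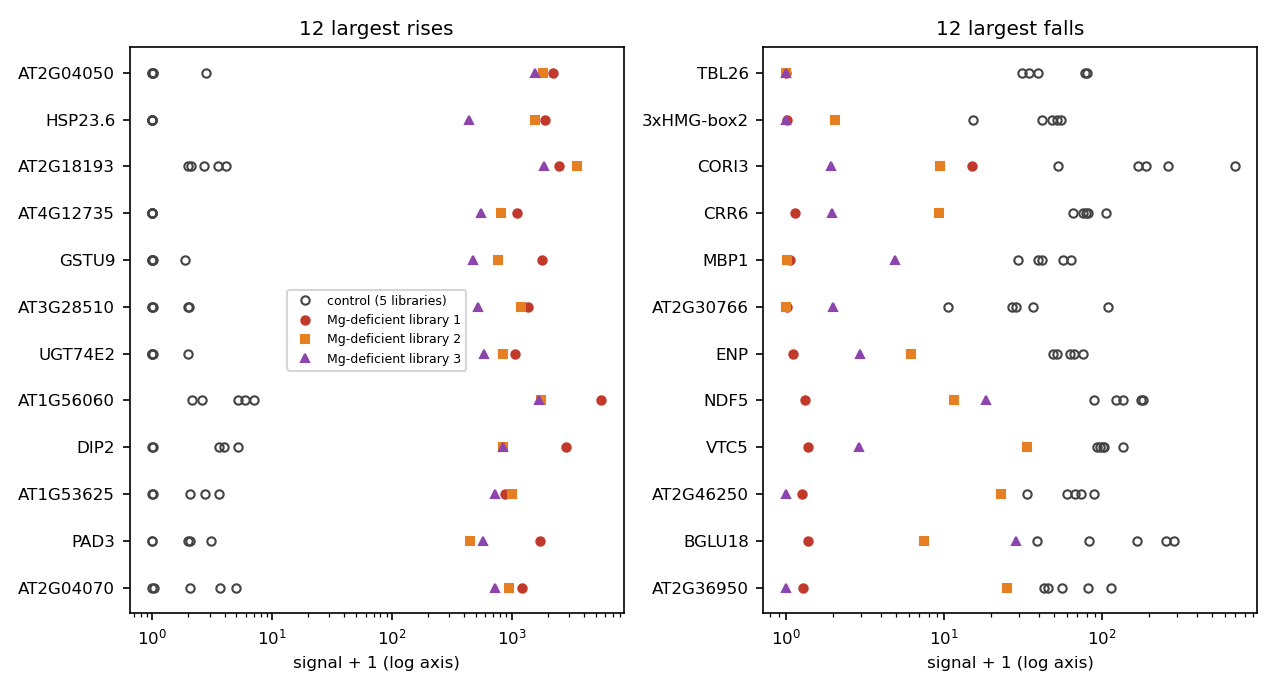
Signal + 1 on a log axis in each of the 5 control and 3 Mg-deficient libraries for the 12 largest rises and the 12 largest falls of the genes that passed, reached a mean of 20 and did not overlap between groups. The rises lay near 0 in control leaves and between 440 and 5537 in Mg-deficient leaves.

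A sequence motif known from mitochondrial retrograde genes was looked for upstream of the genes. This mitochondrial dysfunction motif was searched for as the letters CTTG and CANG, where N is any base, with 5 free bases between them on either strand. All counts of the motif are of this pattern, which may be looser than the motif itself. It was present within 250 bases upstream of the annotated start in 1.32% of the 15492 genes tested that had such a window. The share was 2.86% of the genes that rose and 1.1% of those that fell. Among the 12 largest rises 5 windows held it, and among the 12 largest falls 1 did. The upstream windows of 4 of the largest rises are given, because each holds the motif (capitals, in either orientation) and overlaps no other gene. They come from RefSeq's TAIR10.1 assembly, 5′ to 3′ on the strand of the gene, at chr2:1339469-1339718 (minus strand) for AT2G04050, chr4:12916676-12916925 (plus strand) for HSP23.6, chr2:7919346-7919595 (minus strand) for AT2G18193 and chr5:763481-763730 (minus strand) for DIP2.
AT2G04050: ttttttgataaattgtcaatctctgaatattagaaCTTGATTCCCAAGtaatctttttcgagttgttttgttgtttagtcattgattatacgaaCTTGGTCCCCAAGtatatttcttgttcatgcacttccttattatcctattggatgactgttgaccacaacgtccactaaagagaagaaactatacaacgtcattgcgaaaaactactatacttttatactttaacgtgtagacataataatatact
HSP23.6: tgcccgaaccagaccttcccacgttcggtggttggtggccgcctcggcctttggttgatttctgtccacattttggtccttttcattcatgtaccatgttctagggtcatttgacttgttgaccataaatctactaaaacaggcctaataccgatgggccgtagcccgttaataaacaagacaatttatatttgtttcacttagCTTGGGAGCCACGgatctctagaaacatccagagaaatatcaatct
AT2G18193: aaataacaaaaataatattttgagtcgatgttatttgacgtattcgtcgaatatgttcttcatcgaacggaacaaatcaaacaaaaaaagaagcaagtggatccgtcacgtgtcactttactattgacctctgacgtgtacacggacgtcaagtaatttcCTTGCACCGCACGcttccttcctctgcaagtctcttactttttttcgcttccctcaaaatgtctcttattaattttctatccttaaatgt
DIP2: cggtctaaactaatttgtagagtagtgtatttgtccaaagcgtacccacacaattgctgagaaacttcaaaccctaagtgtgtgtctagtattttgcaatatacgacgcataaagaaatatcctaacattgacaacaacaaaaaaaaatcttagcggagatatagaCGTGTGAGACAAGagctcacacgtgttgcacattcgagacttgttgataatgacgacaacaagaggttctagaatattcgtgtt
The window of AT2G04050 held the motif at 2 places, and those of the other 3 genes held it once. A match is a description of the letters and not evidence of binding.

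Other short motifs were counted in the same windows on both strands. The W-box core TTGAC, bound by WRKY factors, was present in 44.7% of all windows, 52.3% of those of risen genes, 40.6% of those of fallen genes and 11 of the 12 windows of the largest rises. The as-1 core TGACG, which overlaps the W-box core in the letters TTGACG, was present in 19.6%, 21.4% and 19.9%, and in 7 of the 12. GAANNTTC, the core of the heat shock element, was found in 9.44%, 13.6% and 7.17% and in 6 of the 12. The G-box CACGTG was found in 7.53%, 7.13% and 8.8%.

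Mitochondrial retrograde genes had the highest median change of all lists. Of 13 genes, 10 rose and none fell, where 13.7% of all genes had risen and 14.8% had fallen, with a median log2 fold change of 5.27 against -0.34 for all genes, and the counts were the same without Mg-deficient library 1. AOX1A (AT3G22370) encodes the alternative oxidase, which lets respiration bypass the cytochrome pathway. Its signal was 48.4, 52.4, 56, 42.5 and 30.4 in control libraries 1 to 5 and 2711, 1674 and 1223 in Mg-deficient libraries 1 to 3. Every Mg-deficient library was thus above every control library, and the log2 fold change was 5.27 ± 0.30 (SE, adjusted p = 3e-06). Its relative AOX1D (AT1G32350) had 0 reads in all control libraries and signals of 263, 193 and 199 in the Mg-deficient libraries, at least 383-fold higher. OM66 (AT3G50930), an ATPase of the outer mitochondrial membrane, rose by 7.46 ± 0.48, and SOT12 (AT2G03760), a sulfotransferase that acts on SA, rose by 5.98 ± 0.33. ANAC017 (AT1G34190), the membrane-bound transcription factor known to activate many of these genes, did not pass, with a log2 fold change of -2.17 ± 0.86 (adjusted p = 0.0802). The mitochondrial dysfunction motif was present in 4 of the 13 upstream windows.

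Most genes of the SA pathway rose. Of 17 genes of SA and pipecolic acid synthesis and regulation, 14 rose and none fell (median 3.28), with the same counts without Mg-deficient library 1. ICS1 (AT1G74710), which makes the SA precursor isochorismate, had signals of 11.8, 19.2, 2.93, 9.88 and 16.6 in control libraries and 293, 883 and 647 in Mg-deficient libraries. PBS3 (AT5G13320), which acts on isochorismate next, had 1.09, 0.815, 2.59, 1.98 and 0.013 and then 487, 527 and 340. Their log2 fold changes were 5.59 ± 0.56 (adjusted p = 8.5e-05) and 7.72 ± 0.54 (adjusted p = 8.8e-06), and the groups did not overlap. ALD1 (AT2G13810) and FMO1 (AT1G19250) make pipecolic acid and its hydroxylated form, a signal of systemic immunity. ALD1 had 0 control reads and signals of 616, 93.6 and 84.7 in the Mg-deficient libraries, at least 465-fold higher. FMO1 had 1 control read and then 464, 73.5 and 63.2, a ratio of 976 (174 to 38605). For both genes Mg-deficient library 1 was well above the other Mg-deficient libraries, and without it the log2 fold changes were 6.49 and 5.91 instead of 7.42 and 6.83. The SA receptor NPR1 (AT1G64280) did not pass, with a log2 fold change of 0.04 ± 0.44.

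Genes that respond to SA changed mostly upwards. Of 14 genes 11 rose, and 1 fell (median 3.42), compared with 10 and 1 without Mg-deficient library 1. PR2 (AT3G57260), a glucanase, had signals of 63.8, 164, 54.2, 143 and 103 in the control and 1359, 918 and 1274 in the Mg-deficient libraries, a log2 fold change of 3.58 ± 0.37 (adjusted p = 0.00011). PR5 (AT1G75040), a thaumatin-like protein, rose by 3.26 ± 0.28 and the natriuretic peptide gene PNP-A (AT2G18660) by 6.29 ± 0.43. The study also names PR1 (AT2G14610), LLP1 (AT5G03350) and EP1 (AT4G23170) as up-regulated. PR1 and LLP1 rose by 4.13 ± 1.08 and 1.17 ± 0.25, and EP1 did not pass here (0.96 ± 0.34, adjusted p = 0.054). NIMIN2 (AT3G25882) and NIMIN3 (AT1G09415) encode proteins that bind NPR1. NIMIN2 rose by 3.64 ± 0.29 on the log2 scale. NIMIN3 was the one that fell, from 163, 163, 119, 180 and 199 to 0.617, 42.2 and 42.0, and its log2 fold change of -3.50 was -1.92 without Mg-deficient library 1. The 2 genes therefore moved in opposite directions with no overlap of the groups for either.

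Transcription factors and receptors of defence followed. Of 17 WRKY factors, 13 rose and none fell (median 3.76), and 12 rose without Mg-deficient library 1. WRKY46 (AT2G46400) had signals between 2.17 and 13.9 in the control libraries and of 530, 468 and 491 in the Mg-deficient libraries, and its log2 fold change was 5.81 ± 0.48. WRKY51 (AT5G64810), WRKY50 (AT5G26170) and WRKY25 (AT2G30250) rose by 6.35 ± 0.59, 6.05 ± 0.56 and 3.39 ± 0.26. The W-box core was present in 12 of the 17 upstream windows of WRKY genes, beside 44.7% of all windows. It was also in 7 of the 10 windows of photorespiration genes, all of which fell, as given below. For the SA synthesis genes, most of which rose, it was in 7 of 17. Of 18 cysteine-rich receptor-like kinases, a family of receptors linked to oxidative signals, 11 rose and none fell (median 2.90). CRK45 (AT4G11890) rose from at most 16.8 to 747, 351 and 410, and CRK36 (AT4G04490) from at most 6.21 to 394, 193 and 165. Among 13 receptors and kinases of early pattern signalling 6 rose, none fell and the median was 1.08, and RBOHD (AT5G47910), the oxidase that produces extracellular reactive oxygen, did not pass (0.41 ± 0.51).

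**Figure D3:**
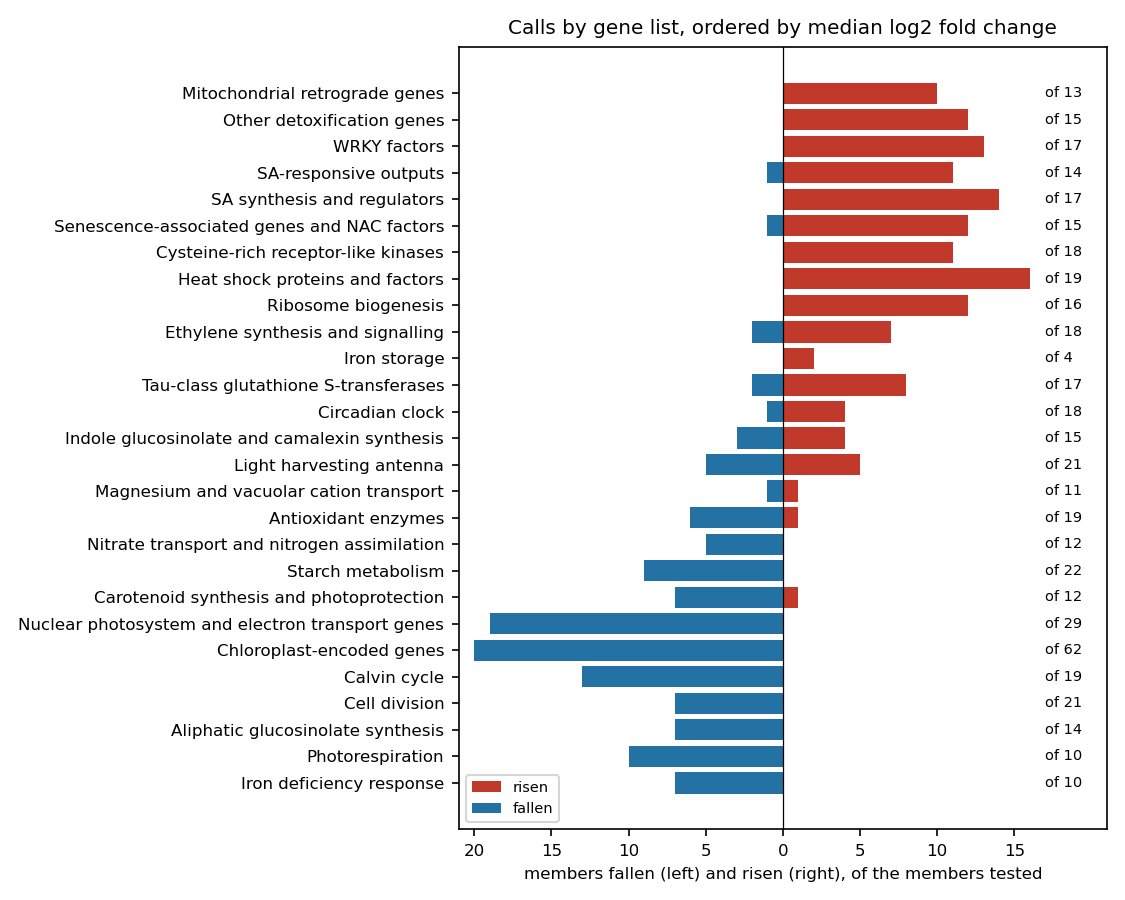
Number of list members that rose (right) and fell (left) in Mg-deficient expanding leaves on day 5, for the lists described, ordered by the median log2 fold change of their members. Mitochondrial retrograde genes (10 of 13 rose) and photorespiration genes (10 of 10 fell) lay near opposite ends.

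Detoxification genes rose, but not all members of a family did. Of 17 tau-class glutathione S-transferases 8 rose and 2 fell (median 0.91). GSTU4 (AT2G29460) rose from at most 3.46 to 999, 169 and 219 (7.25, and 6.46 without Mg-deficient library 1), whereas GSTU5 (AT2G29450) fell from 1591, 1313, 1001, 1121 and 1029 to 231, 484 and 705 (log2 fold change -1.47 ± 0.34, adjusted p = 0.00977). GSTU24 (AT1G17170) rose by 7.09 ± 0.62. GSTU25 (AT1G17180) had 2 reads in the control group and 348 in the Mg-deficient group, a ratio of 329 (90.4 to 2727). Among 15 other detoxification genes 12 rose and none fell (median 4.27), with 10 rising without Mg-deficient library 1. CYP81D8 (AT4G37370), a cytochrome P450, had signals of 0.034, 3.52, 1.61, 1.98 and 3.12 in control and 1346, 585 and 587 in Mg-deficient libraries. CC-type glutaredoxins are small redox proteins, of which several bind TGA transcription factors. Of 14 tested, only GRX480 (AT1G28480) and GRXS13 (AT1G03850) passed, a share near the 13.7% of all genes that rose, and the median was -0.21. GRX480 rose from 2.22, 5.18, 7.73, 2.96 and 3.15 to 1745, 529 and 858, and GRXS13 rose by 2.94 ± 0.54.

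Enzymes that remove reactive oxygen species did not rise as a group on day 5. Of 19 antioxidant enzymes 1 rose and 6 fell (median -0.62), beside 13.7% and 14.8% of all genes. Under scaling by the median of ratios 2 rose and 3 fell. Leaving out single libraries gave 2 to 6 falls. CSD1 (AT1G08830), the cytosolic copper-zinc superoxide dismutase, rose from 136, 180, 111, 124 and 110 to 281, 249 and 295 (log2 fold change 1.07 ± 0.23, adjusted p = 0.00741). DHAR1 (AT1G19570), which regenerates ascorbate, fell from 288, 564, 340, 283 and 169 to 57.8, 60.5 and 94.6 (-2.12 ± 0.36, adjusted p = 0.00202). CAT3 (AT1G20620), a catalase, fell by 1.16 ± 0.28 on the log2 scale. Neither of these falls showed any overlap of the groups.

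Genes of indole compounds changed in both directions. Of 15 genes 4 rose and 3 fell (median 0.09), beside 13.7% of all genes that rose and 14.8% that fell. PAD3, CYP71A12 (AT2G30750) and CYP71A13 (AT2G30770) belong to camalexin synthesis, and the latter had 0 reads in the control libraries and signals of 156, 26.8 and 23.3 in the Mg-deficient libraries, at least 121-fold higher. CYP71A12 and CYP71A13 are close copies, so their reads may have been divided. CYP71A13 also overlaps AT2G30766, a gene on the opposite strand that fell, so their reads cannot be told apart where strand was not used. CYP81F2 (AT5G57220), which modifies finished indole glucosinolates, rose by 5.02 ± 0.72. UGT74B1 (AT1G24100), a core step of glucosinolate synthesis, fell from 327, 360, 245, 351 and 359 to 51.1, 154 and 146 (-1.62 ± 0.35, adjusted p = 0.00732). Aliphatic glucosinolate genes had no rises, and 7 of 14 fell (median -1.93), with counts of falls between 3 and 9 when single libraries were left out. CYP83A1 (AT4G13770), an enzyme of that pathway, had signals of 178, 406, 183, 258 and 250 in control and 45.8, 86.8 and 79.0 in Mg-deficient libraries. MYB29 (AT5G07690), a regulator of it, fell from 20.4, 29.5, 23.4, 11.8 and 11.6 to 0.08, 4.17 and 0.964 (-3.11 ± 0.66).

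Heat shock genes formed another group with many rises. Of 19 heat shock proteins and factors 16 rose and none fell (median 2.80), and 14 rose without Mg-deficient library 1. HSP17.4 (AT3G46230) had signals of at most 2.69 in control leaves and of 585, 597 and 102 in Mg-deficient leaves, and HSP17.6A (AT5G12030) at most 5.96 and then 356, 545 and 130. For HSP23.6, HSP17.4 and HSP17.6A alike, Mg-deficient library 3 was the lowest of the Mg-deficient libraries but was above every control library. The small heat shock genes resemble each other, so the share of each is uncertain. Of 16 chaperones of the endoplasmic reticulum 2 rose and 1 fell (median -0.28), beside 13.7% of all genes that rose and 14.8% that fell. The core of the heat shock element was present in 4 of the 19 upstream windows (21.1%), against 9.44% of all windows. It was not particular to this list, as 4 of the 17 windows of SA synthesis genes (23.5%) held it.

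Ribosome biogenesis genes rose by smaller amounts. Of 16 genes 12 rose and none fell (median 1.61), and 14 rose without Mg-deficient library 1. NUC1 (AT1G48920) encodes nucleolin, an abundant protein of the nucleolus. Its signal was 345, 237, 454, 273 and 476 in control libraries and 999, 1893 and 1421 in Mg-deficient libraries (2.01 ± 0.30, adjusted p = 0.00107). FIB1 (AT5G52470), a fibrillarin that methylates ribosomal RNA, rose by 1.69 ± 0.26, APUM24 (AT3G16810) by 3.66 ± 0.48 and AT5G27120, a NOP56-like protein, by 2.75 ± 0.33. By contrast, of 21 cell division genes none rose and 7 fell (median -1.65). CYCA1-1 (AT1G44110), a mitotic cyclin, had signals of 4.41, 14.9, 9.17, 4.93 and 8.36 in the control libraries and 0 reads in the Mg-deficient libraries, at least 7.76-fold lower. PCNA1 (AT1G07370), the clamp of DNA replication, fell by 2.69 ± 0.66 on the log2 scale (-1.92 without Mg-deficient library 1), and CYCD3-1 (AT4G34160), a cyclin of dividing leaf cells, by 3.15 ± 0.71. The other 14 of the 21 did not pass, and leaving out single libraries gave 3 to 11 falls. Of 19 genes of leaf growth and cell wall loosening 2 rose and 1 fell, with 0 to 6 falls when single libraries were left out. Among all genes 13.7% rose and 14.8% fell.

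Genes associated with leaf senescence rose widely. Of 15 senescence-associated genes and NAC factors 12 rose and 1 fell (median 3.19), with the same counts without Mg-deficient library 1. SAG21 (AT4G02380), a protein of late embryogenesis type, had signals of 27.1, 29.8, 10.1, 47.5 and 80.0 in control and 5643, 4989 and 4499 in Mg-deficient libraries (7.26 ± 0.51, adjusted p = 9.2e-06). SAG14 (AT5G20230), a blue copper protein, rose by 6.97 ± 0.36, and the NAC factors ATAF2 (AT5G08790) and ANAC102 (AT5G63790) by 3.35 ± 0.25 and 2.71 ± 0.21. SAG20 (AT3G10985) fell from 125, 163, 135, 146 and 146 to 0.595, 10.8 and 66.5, with log2 fold changes of -3.73 and, without Mg-deficient library 1, -2.35. The 3 Mg-deficient values of SAG20 differed widely and all lay below the control values.

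Of the photosynthesis lists, photorespiration had the lowest median. This pathway recovers carbon from the oxygenation product of ribulose bisphosphate and releases hydrogen peroxide and ammonium on the way. All 10 of its genes fell (median -2.24), also without Mg-deficient library 1 (median -1.74), and the background of falls was 14.8%. GOX1 (AT3G14420), the glycolate oxidase that forms hydrogen peroxide, had signals of 2138, 2085, 2348, 2029 and 2208 in control libraries and 218, 490 and 654 in Mg-deficient libraries. The control values lay within a narrow range and all Mg-deficient values lay far below it, a log2 fold change of -2.39 ± 0.32 (adjusted p = 0.00056). GLDP1 (AT4G33010), a subunit of glycine decarboxylase in mitochondria, fell from 1785, 2473, 2175, 2487 and 2290 to 356, 493 and 664, and AGT1 (AT2G13360), a peroxisomal aminotransferase, from 5202, 5426, 3862, 5663 and 6234 to 587, 1251 and 1724. Their log2 fold changes were -2.19 ± 0.25 (adjusted p = 0.00023) and -2.27 ± 0.35 (adjusted p = 0.00134). AT1G11860, an aminomethyltransferase of glycine cleavage, fell by 2.22 ± 0.34.

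Of 19 Calvin cycle genes 13 fell and none rose (median -1.14), and 12 fell without Mg-deficient library 1. PRK (AT1G32060), which regenerates ribulose bisphosphate, had signals of 3507, 3475, 2825, 4061 and 3918 in control and 373, 1235 and 1279 in Mg-deficient libraries (-2.07 ± 0.39, adjusted p = 0.00363). FBA1 (AT2G21330), a plastid aldolase, fell by 2.27 ± 0.35. For PRK the value of Mg-deficient library 1 was far below those of the others, and without it the log2 fold change was -1.49. The small subunits of ribulose bisphosphate carboxylase did not move alike. RBCS2B (AT5G38420) fell from 4665, 5684, 4360, 5621 and 4759 to 631, 1765 and 2190 (-1.89 ± 0.38), whereas RBCS1A (AT1G67090) did not pass, with means of 62684 and 64794 and a log2 fold change of -0.12 that became 0.45 without Mg-deficient library 1. RBCS1B (AT5G38430) fell by 1.57 ± 0.41 on the log2 scale (-0.91 without Mg-deficient library 1). These copies resemble each other, and the division of reads among RBCS1B, RBCS2B and RBCS3B (AT5G38410) is uncertain.

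Of 29 nuclear genes of the photosystems and electron transport, 19 fell and none rose (median -1.13), and leaving out single libraries gave 9 to 23 falls, the fewest without control library 4. PETE1 (AT1G76100), a plastocyanin, had signals of 449, 474, 543, 464 and 466 in the control libraries and 126, 160 and 181 in the Mg-deficient libraries (-1.63 ± 0.20, adjusted p = 0.00037). PSAH2 (AT1G52230) of photosystem I fell by 1.74 ± 0.29 and PSBQ2 (AT4G05180) of the oxygen-evolving complex by 1.69 ± 0.34. These falls were also present without Mg-deficient library 1, with log2 fold changes of -1.48, -1.48 and -1.30. Among the chloroplast-encoded genes 62 of 90 were tested, of which 20 fell and none rose (median -1.13), and 11 to 22 fell when single libraries were left out, the fewest without control library 5. The libraries were made from extracted mRNA, so signals of organelle genes may cover only a part of their transcripts. The study describes the protocol as covering non-processed RNA as well. The share of all organelle reads ran from 1.12 to 2.71% in the control group and from 1.24 to 1.41% in the Mg-deficient group, which overlapped (2-sided exact permutation test, p = 0.143).

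The genes of the antenna proteins, which bind chlorophyll, were divided. Of 21 genes 5 rose and 5 fell, and the median was -0.12 (6 and 6 without Mg-deficient library 1). Among all genes 13.7% had risen and 14.8% had fallen. The rises numbered 2 without control library 1, 4 or 5 and 3 without Mg-deficient library 2 or 3, whereas 5 or 6 genes fell whichever library was left out. LHCA4 and LHCB3 each lost the call without 4 of the 8 libraries, and CAB3 passed with overlapping groups at an adjusted p of 0.0498. LHCB2.1 (AT2G05100), of the major antenna of photosystem II, rose from 414, 450, 369, 358 and 344 to 690, 919 and 710 (0.99 ± 0.20, adjusted p = 0.00574). LHCB4.1 (AT5G01530), of the minor antenna, fell from 2920, 4677, 2404, 4120 and 3666 to 952, 1292 and 1527 (-1.49 ± 0.29, adjusted p = 0.00461). The rises included CAB2, CAB3, LHCB2.1 and LHCB3 of the major trimer, and the falls included LHCB4.1, LHCB4.2 and LHCB6 of the minor antenna. LHCA4 (AT3G47470) of photosystem I rose, while LHCA5 (AT1G45474) and LHCA6 (AT1G19150), which link photosystem I to the NDH complex, fell by 1.69 ± 0.42 and 1.89 ± 0.45 (-1.04 and -1.16 without Mg-deficient library 1). CAB1 (AT1G29930), CAB2 (AT1G29920) and CAB3 (AT1G29910) are nearly identical, so how their reads were divided is uncertain. CAB1 had 7700, 8828, 6841, 8988 and 7271 in control and 1626, 7716 and 9423 in Mg-deficient libraries, and CAB2 had 459, 343, 294, 413 and 502 and then 6076, 12263 and 12177. The groups were apart for CAB2 and overlapped for CAB1.

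**Figure D4:**
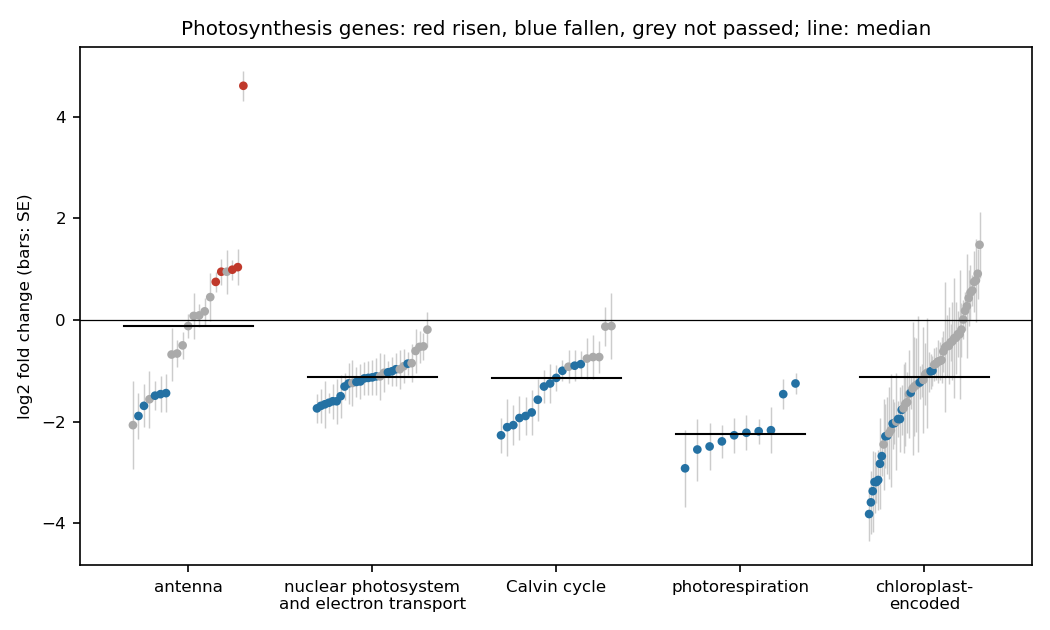
Log2 fold change of each photosynthesis gene tested (points, red risen, blue fallen, grey not passed) with its SE, by list, and the median of each list as a line. The antenna is spread on both sides of 0 (5 rose and 5 fell), whereas all 10 photorespiration genes lay below it.

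Pigment and plastid genes had few rises. Of 24 chlorophyll synthesis genes 13 fell and 1 rose, and of 12 chlorophyll breakdown genes 4 fell and 1 rose. Leaving out single libraries gave 6 to 14 falls for synthesis, the fewest without control library 4, and 2 to 5 for breakdown. Of the genes that the study names, NYE1 (AT4G22920) of chlorophyll breakdown rose from at most 27.5 to 172, 89.2 and 105 (2.16 ± 0.31, adjusted p = 0.00091). MRP3 (AT3G13080) rose by 5.78 ± 0.33 and PPC2 (AT2G42600) fell by 1.14 ± 0.25. CHLI1, CHLI2 and CHLG of chlorophyll synthesis had -1.61, -3.33 and -1.86 (-0.97, -2.42 and -0.96 without Mg-deficient library 1). Of 12 genes of carotenoid synthesis and photoprotection 7 fell and 1 rose (median -1.06), with 4 to 7 falls when single libraries were left out. LUT2 (AT5G57030), the cyclase that leads to lutein, had signals of 255, 238, 195, 201 and 199 in control and 21.6, 42.5 and 88.8 in Mg-deficient libraries (-2.29 ± 0.38, adjusted p = 0.00197). PSY (AT5G17230), the first step of the pathway, fell by 1.45 ± 0.35. Starch metabolism had 9 falls and no rise among 22 genes (median -0.96), with 5 falls without control library 1 or 2 and under scaling by the median of ratios, and 12 without Mg-deficient library 3. BAM3 (AT4G17090), a plastid beta-amylase that degrades starch, fell from 259, 346, 265, 348 and 394 to 49.1, 48.8 and 69.2 (-2.51 ± 0.24, adjusted p = 6.9e-05). Genes of starch synthesis fell as well, PGM1 (AT5G51820) by 1.01 ± 0.23 and APL1 (AT5G19220) by 0.87 ± 0.22. Of 21 sugar transporters 4 rose and 4 fell (2 to 6 falls when single libraries were left out), and none of 9 anthocyanin and flavonol genes passed. The background in all genes was 13.7% risen and 14.8% fallen.

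Of 10 genes of the iron deficiency response that could be tested, 7 fell and none rose (median -3.03), and 5 fell without Mg-deficient library 1. PYE, BTS and NAS4 (AT1G56430, -1.10 ± 0.91) did not pass. OPT3 (AT4G16370), a transporter of iron in the phloem, fell from 56.2, 91.7, 127, 90.0 and 80.4 to 28.1, 24.4 and 31.2 (-1.60 ± 0.32, adjusted p = 0.00469). FRO6 (AT5G49730) and FRO3 (AT1G23020), which reduce ferric iron, fell by 3.98 ± 0.77 and 3.24 ± 0.63, and their log2 fold changes were -2.69 and -2.59 without Mg-deficient library 1. AT2G30766, also called FEP1, a short peptide gene induced by lack of iron, had signals of 26.0, 35.8, 108, 27.6 and 9.57 and then 0.0169, 0.00507 and 0.980, which is 1 read, and its control-to-deficient ratio was 122 (21.7 to 4847). BTS (AT3G18290) and PYE (AT3G47640), which are regulators, had values of 0.17 ± 0.52 and 0.10 ± 0.38. Of 4 iron storage genes tested 2 rose, while FER3 (AT3G56090, 0.46 ± 0.23) and VTL2 (AT1G76800, 0.87 ± 1.11) did not pass. FER1 (AT5G01600) encodes ferritin, which stores iron in plastids. It rose from 22.7, 38.8, 36.8, 28.7 and 24.1 to 273, 123 and 94.5 (2.28 ± 0.39, adjusted p = 0.00213), and FER4 (AT2G40300) rose by 0.97 ± 0.25.

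Of 11 genes of Mg and vacuolar cation transport 1 rose and 1 fell (median -0.33). CAX3 (AT3G51860), a vacuolar exchanger of cations for protons, had signals of 8.91, 53.5, 4.28, 25.7 and 99.7 in control libraries, which spread widely, and 1162, 1686 and 1226 in Mg-deficient libraries (5.81 ± 0.81, adjusted p = 0.00068). MRS2-11 (AT5G22830), a Mg channel of the chloroplast envelope, fell from 67.8, 77.3, 58.9, 67.2 and 61.6 to 40.7, 17.1 and 14.6 (-1.57 ± 0.37, adjusted p = 0.0114). No other channel of the MRS2 family passed, but without Mg-deficient library 1 the list had 4 falls instead of 1. Nitrogen genes had 5 falls and no rise among 12, and 2 to 5 falls when single libraries were left out (3 without Mg-deficient library 1). GLU1 (AT5G04140), the ferredoxin-dependent glutamate synthase that recovers photorespiratory ammonium, fell from 615, 709, 601, 719 and 526 to 184, 199 and 248 (-1.59 ± 0.21, adjusted p = 0.00047). Sodium transport had 1 fall among 5 genes and phosphate starvation 1 rise among 10. Sulfate assimilation had 1 rise and 4 falls among 20 (0 to 7 falls when single libraries were left out). The background in all genes was 13.7% risen and 14.8% fallen.

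Among the hormone lists other than SA, ethylene had 7 rises and 2 falls among 18 genes (median 1.38), with 5 to 6 rises and 0 to 2 falls when single libraries were left out. ACS2 (AT1G01480), an enzyme of ethylene synthesis, had 0 control reads and signals of 10.5, 64.2 and 16.5 in the Mg-deficient libraries, at least 53.4-fold higher, and ERF4 (AT3G15210), a repressor that responds to ethylene, rose by 2.77 ± 0.33. Jasmonate genes had 4 rises and 5 falls among 19, and 5 of 18 abscisic acid and dehydration genes rose while 1 fell. Among all genes 13.7% had risen and 14.8% had fallen. Clock genes had 4 rises and 1 fall among 18, and 1 to 5 rises when single libraries were left out (2 without Mg-deficient library 1). CCA1 (AT2G46830), a morning factor of the clock, rose from 3.21, 0.757, 4.29, 2.97 and 1.07 to 218, 37.4 and 29.1 (4.32 ± 0.75, adjusted p = 0.00249), and TOC1 (AT5G61380), an evening factor, fell by 1.11 ± 0.24. Mg-deficient library 1 had the highest CCA1 signal, and without it the log2 fold change was 3.42. GI (AT1G22770), also of the clock, rose by 2.19 ± 0.65 (adjusted p = 0.0288), and did not pass without that library (1.54).

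The 12 largest falls came from varied functions. TBL26 (AT4G01080), of a family that acetylates cell wall polysaccharides, had signals of 33.6, 79.4, 77.1, 38.5 and 30.4 in the control libraries and 0 reads in all Mg-deficient libraries, at least 48.1-fold lower. 3xHMG-box2 (AT4G23800), a protein of mitotic chromosomes, had 215 reads in the control group and 1 in the Mg-deficient group, a ratio of 114 (20.2 to 4512). CORI3 (AT4G23600), a lyase induced by jasmonate, fell from 189, 690, 167, 262 and 51.4 to 14.2, 8.47 and 0.931 (-4.92 ± 0.81, adjusted p = 0.00186). Control signals of CORI3 spread widely among themselves and yet did not overlap with the Mg-deficient signals. CRR6 (AT2G47910) and NDF5 (AT1G55370), which serve the chloroplast NDH complex of cyclic electron flow, fell by 4.88 ± 0.63 and 4.38 ± 0.72. VTC5 (AT5G55120), of ascorbate synthesis, fell from 101, 102, 136, 95.9 and 91.9 to 0.374, 32.4 and 1.89 (-4.37 ± 0.82), and BGLU18 (AT1G52400), a glucosidase of endoplasmic reticulum bodies, by 4.31 ± 0.92. The others were MBP1 (AT1G52040, -4.67), AT2G30766 (-4.66), ENP (AT4G31820, -4.47), AT2G46250 (-4.33) and AT2G36950 (-4.31), and without Mg-deficient library 1 the 12 values ranged from -5.60 to -3.18.

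**Figure D5:**
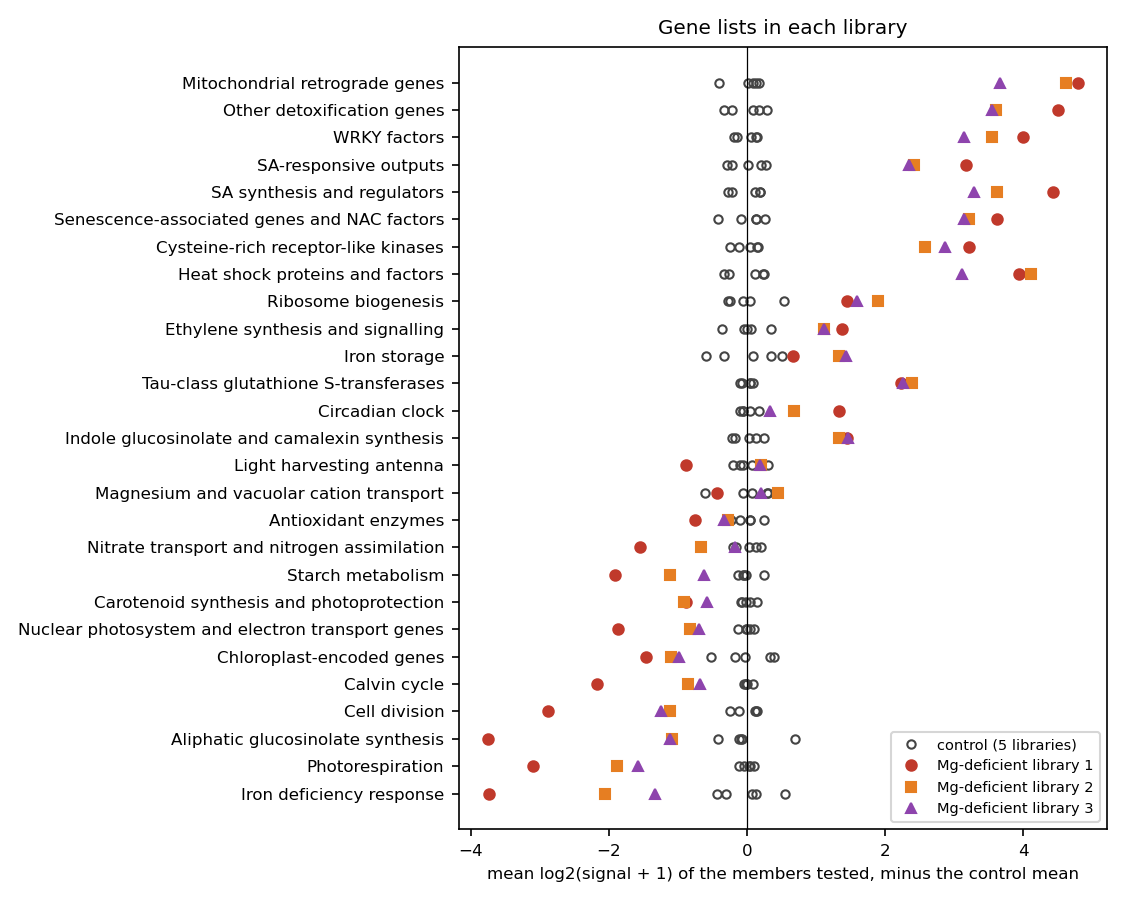
Mean log2(signal + 1) of the members tested of each list, minus the control mean, in each of the 5 control and 3 Mg-deficient libraries. For the Calvin cycle Mg-deficient library 1 lay at -2.17 and the others at -0.86 and -0.68, whereas for mitochondrial retrograde genes the 3 libraries lay at 4.79, 4.63 and 3.67.

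The plot of lists by library shows how far the Mg-deficient libraries differed. For photorespiration the mean of the members minus the control mean was -3.10, -1.89 and -1.58 in Mg-deficient libraries 1 to 3, and for SA synthesis it was 4.43, 3.62 and 3.29. The control libraries stayed between -0.12 and 0.10 for photorespiration and between -0.27 and 0.19 for SA synthesis. Direction was therefore the same in each Mg-deficient library for both lists, and library 1 was furthest from the control.

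The changes were then compared with those of mature leaves on the same day. Of 14522 genes tested in both tables, 3019 differed in log2 fold change (adjusted p under 0.05, 20.8%), 1446 higher and 1573 lower in expanding leaves, and 0 genes passed in mature leaves themselves, where limma gave 1016 genes at an unadjusted p under 0.05. All 10 photorespiration genes differed and were lower in expanding leaves, against 10.8% of all genes (median -2.24 here and 0.05 in mature leaves). For nuclear photosystem genes 20 of 29 were lower, and for SA synthesis 15 of 17 were higher, against 9.96% of all genes (median 3.28 here and -0.37 there). Of the 10 mitochondrial retrograde genes tested in both, 8 were higher. AT2G18193 had log2 fold changes of 9.83 in expanding and 0.92 in mature leaves, a difference of 8.91 ± 1.14 (adjusted p = 1.3e-05). CRR6 had -4.88 and 0.37, a difference of -5.26 ± 0.72 (adjusted p = 8.3e-05). Both genes were taken from the largest changes in expanding leaves, which favours a difference, so their values are a description.

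Expanding leaves on day 8 differed from those on day 5 in 2438 of 14584 genes (16.7%), with 515 higher and 1923 lower on day 5. Antenna genes were higher on day 5 for 11 of 21, against 3.53% of all genes (median -0.12 on day 5 and -1.83 on day 8), and so were 13 of 29 nuclear photosystem genes (median -1.13 and -2.38). Ribosome biogenesis genes were lower on day 5 for 8 of 16, against 13.2% of all genes (median 1.61 and 3.00), and 1 of 10 photorespiration genes differed (median -2.24 and -2.55). Antioxidant enzymes were lower on day 5 for 8 of 19 (median -0.62 and 0.45). On day 8 itself 8 of the 19 antioxidant enzymes rose and 3 fell.

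In 92 genes (0.631% of 14584) the change was called on both days in opposite directions, 14 of them risen and 78 fallen on day 5. NIA2 (AT1G37130), the main nitrate reductase, was the clearest. Its signal on day 5 was 533, 764, 488, 887 and 874 in control and 223, 233 and 286 in Mg-deficient libraries, a log2 fold change of -1.48, whereas on day 8 it was 2.97, and the difference was -4.45 ± 0.37. CRT1A (AT1G56340), a calreticulin of the endoplasmic reticulum, had -1.57 on day 5 and 1.89 on day 8, and CAT2 (AT4G35090), a catalase of peroxisomes, had -0.90 and 1.84. LHCA4 went the other way, from 0.95 on day 5 to -2.27 on day 8. These genes were chosen for their opposite calls, so the values describe them and test nothing further.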

How the data were processed

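RNA of leaves 3 and 4 was measured with strand-specific BrAD-seq libraries, and 8 libraries of 1 table were used here, with the same day's mature leaves and the expanding leaves of day 8 for comparison (3 of 7 tables). According to the submitters' processing notes the genome was TAIR10 and R 3.5.0 was used. The deposited signal was made by the authors from read counts with edgeR, which adjusted the libraries of each table to a common size, so values were compared within a table only. Undoing this adjustment (dispersion 0.05) gave whole numbers for 100% of the values within a tolerance of 0.001, and these reads served for totals, bounds and 1 alternative. Intervals of 95% and the floor of 3 reads over a group cover counting error only.

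Genes were tested if their mean signal reached 5, with limma 3.58.1 (R 4.3.3, lmFit and eBayes with trend) on log2(signal + 1), control against Mg-deficient, and p-values were adjusted by Benjamini-Hochberg over all genes tested. A gene was called risen or fallen at an adjusted p under 0.05, and the study's threshold, an unadjusted p under 0.01, was an alternative. Folds are on the log2(signal + 1) scale, which understates changes of genes with low signal, and errors are SE. Differences of log2 fold change between tables were tested from their 2 standard errors with Satterthwaite degrees of freedom. Shares between libraries were compared with 2-sided exact permutation tests. The procedure was also run on simulated data with the same dispersion rule for all libraries. No simulated library stood apart as Mg-deficient library 1 did, so the simulation cannot show how the procedure behaves with such a library. Other tools were Python 3.11.15, numpy 2.4.6, pandas 2.3.3, scipy 1.17.1 and matplotlib 3.10.9.

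The 43 pathway lists, of which 27 are described most fully, the 6 marker lists and 2 organelle lists (919 loci) and the members were chosen with earlier results of these data known. In these lists 3 loci were dropped because their symbol belongs to another locus in RefSeq. Symbols were matched for 19553 of 19682 loci. Genes were named by a rule: the 12 largest rises and the 12 largest falls that passed, reached a mean of 20 and did not overlap between the groups, in each described list up to 4 members per direction with the smallest p, some of the members that the study names for these leaves, the genes of the comparisons between tables, and markers. PR1, LLP1, EP1, CAB1, CAB3, LHCB6, NPR1, ANAC017, RBOHD, BTS, PYE, NAS4, FER3, VTL2, RBCS3B and the genes of the closing paragraphs on the NDH complex and on neighbouring genes were named after their values were seen. Not every gene that the study names is given. Upstream windows of 250 bases were read from RefSeq's TAIR10.1 at its annotated gene starts, for 15492 of the genes tested, and chromosome coordinates are of that assembly. There were 17 alternatives.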

Additional observations from a re-analysis of the deposited data

Results flagged for a closer look

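In 22 of 169 sets of 5 control values the highest or lowest library lay apart from the others by more than Dixon's 95% critical value of 0.71, where chance gives about 1 in 20. The gap is given as a share of the range. For genes with almost no control reads the gap came from single reads. It was 0.996 for AT2G04050 (control library 2, signal 1.82), GSTU9 (control 3, 0.878) and CYP71A12 (control 2, 0.897), and 0.997 for UGT74E2 and FMO1 (control 4, 0.992), CRK37 and LNK3 (control 5, 1.03) and CYP81F2 (control 4, 3.97). HSP17.6A (control 4, 5.96) gave 0.823 and ERF11 (control 5, 4.11) gave 0.760.

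Control library 3 was apart for AT2G30766 (0.735), VTC5 (0.773), UGT74B1 (0.717), PETE1 (0.737), PSAD2 (0.834) and MYB60 (0.787). Its correlation with the rest of the control group, 0.915, was apart as well (0.799). Control library 2 was apart for LHCB3 (0.768), CAT3 (0.783), IPMI1 (0.713) and BAM5 (0.793), and control library 5 for IRX1 (0.836). All of these libraries were kept in the values of the report.

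The log2 fold change differed between tables for the genes below at an adjusted p under 0.05. Those not chosen for opposite calls came from the 5 largest rises and 5 largest falls in expanding leaves on day 5. That choice favours a difference from another table, so their values are a description as well. Against mature leaves on day 5 the differences were 8.91 for AT2G18193, -5.50 for TBL26, -5.41 for 3xHMG-box2, -5.54 for CORI3, -5.26 for CRR6 and -4.25 for MBP1. Against expanding leaves on day 8 they were 2.17 for HSP23.6, -3.78 for TBL26, -3.81 for 3xHMG-box2 and -4.36 for CORI3. HSP23.6 had 0 control reads on day 5, its adjusted p of 0.0496 lay between 0.0103 and 0.112 under the alternatives, and no order of the days is read from it. For genes chosen because they were called in opposite directions on days 5 and 8 they are a description, and were -4.45 for NIA2, -3.46 for CRT1A, -2.74 for CAT2, -2.94 for cpHsc70-1, 3.23 for LHCA4 and 2.50 for AT1G58590, a gene without a described role in the files used here. The causes were not tested.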

How the results depend on the processing

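Of 153 named genes called, none reversed under any alternative that gave it a value. Between 0 and 15 lost the call under another pseudocount, filter, scaling, array weights or voom on the recovered reads, 5 to 18 when a library was left out and 63 with the replicate block. Genes that lost it without at least 1 library include ASN2, BCH2, CAT2, CCD1, CER1, CHLG, ERS1, FDH, FSD1, FSD2, GI, GSTU26, IPMI2, LHCA4, LHCB3, LNK3, LNK4 and NRT1.1. Leaving out single libraries gave 1615 to 2331 genes risen and 1216 to 3401 fallen, 1653 to 2072 higher and 1292 to 2667 lower at the study's threshold, and 159 to 177 list members risen and 103 to 212 fallen. The fewest falls came without control library 4, and without control libraries 1, 2 and 5 there were 1288, 1231 and 1320. At a mean of at least 20 the genes lower at an unadjusted p under 0.01 were 1273 of the genes left, since fewer were tested. Values that changed sign were all of genes or differences that did not pass. RBCS1A was 0.12 under the median of ratios, 0.42 under array weights and 0.45 without Mg-deficient library 1 (-0.41 to 0.45 over the libraries left out). GRF1 was 0.04 under the median of ratios. FAMA was 0.46 under array weights and 0.41 without Mg-deficient library 1 (-0.70 to 0.41). KAT1 was 0.05, 0.14, 0.06 and 0.03 under the median of ratios, array weights, without control library 3 and without Mg-deficient library 1 (lowest -0.34). AHA3 was 0.10 without Mg-deficient library 1 (lowest -0.72), and APL -0.00 under array weights and -0.03 without Mg-deficient library 3. The difference of AT2G04050 from day 8 was 0.19 at pseudocount 5, 0.34 under the median of ratios, 0.27 without control library 2 and 0.10 without Mg-deficient library 3 (lowest -0.16), and it rests on 2 control reads on day 5. The causes were not tested.

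Both groups carry replicate numbers 1 to 3, but same-numbered libraries did not deviate together (correlations -0.0365, -0.034 and -0.0108). With the replicate block, which leaves 2 residual degrees of freedom, 663 genes had risen and 200 had fallen, 990 were higher and 726 lower at the study's threshold, and 116 and 28 list members had risen and fallen. With 3 Mg-deficient libraries, of which 1 has fewer reads, genes with few reads have wide intervals.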

Other observations

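Nuclear genes of the chloroplast NDH complex, which carries electrons back into the thylakoid membrane during cyclic electron flow, were looked at because CRR6 and NDF5 were among the largest falls. The genes were taken from RefSeq by name after those values were seen, so no test is given for the group. The names include LHCA5, LHCA6 and the assembly factor CRR1, so not all are subunits. Of 29 genes tested 26 fell and none rose (median -1.99), beside 14.8% of all genes that fell. Counts of this group were not taken with libraries left out. Without Mg-deficient library 1 the log2 fold changes of CRR6, NDF5, LHCA5 and LHCA6 were -4.25, -3.22, -1.04 and -1.16. CRR1 fell by 3.90 on the log2 scale, NdhM by 3.25 and the subunit PnsB5 by 3.26, and the smallest fall was that of NdhU, with -0.82. CRR41, NdhL and CRR2 did not pass (-2.50, -0.33 and -1.50).

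Some genes with large rises lay beside relatives that rose as well, and not all relatives rose. On chromosome 2 the MATE transporter genes DTX1 (1334270 to 1336550), AT2G04050 (1337180 to 1339468) and AT2G04070 (1353755 to 1355883) rose by 6.40, 10.54 and 8.82 on the log2 scale, whereas the next one, AT2G04080 (1357156 to 1359403), did not pass (0.45 ± 0.44). DTX1 overlaps AT2G04039 on the opposite strand, which fell by 3.02. Of the P-loop ATPase genes, AT2G18190 and AT2G18193 rose by 7.84 and 9.83, and AT3G28510, AT3G28540 and AT3G28580 by 9.48, 3.84 and 7.05. GSTU24 and GSTU25 on chromosome 1 rose by 7.09 and 6.49, and the neighbouring GSTU26 fell by 2.07 (adjusted p = 0.0454), a call that was lost without Mg-deficient library 1 (-1.23, adjusted p = 0.0702) and without each control library. The log2 values of AT2G04050, AT3G28510 and GSTU25, with 2 control reads each, depend on the pseudocount and are no bounds. So does that of AT2G18190, which had a signal of 0 in all control libraries. Close copies may have shared reads, and these clusters were chosen after their values were seen.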
